A study of Mus musculus with 96 samples.

Results

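Single mouse embryos collected 2 h after fertilization were compared with single embryos collected at fertilization (0 h). Libraries were chosen by their labelled hour, which gave 5 libraries of 2 h and 5 of 0 h, 10 of the 96 in the series. All 10 embryos were C57BL/6J, untreated, from superovulated females mated with males of the same strain. The females had received PMSG and, 46 h later, hCG. Collection began 12 h after hCG from plugged females and was repeated every 2 h. The hours are therefore nominal, and the labels give neither the pronuclear stage nor the mother of an embryo, nor whether a given embryo was fertilized. Cumulus cells were removed with hyaluronidase, and RNA of each embryo was amplified with SMART-Seq v4, which primes cDNA on poly(A) tails. Both groups belonged to 1 processing cohort, so no batch difference between them is recorded. The labels do not say whether embryos of a group had separate mothers, so p-values measure the spread between these embryos.

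At fertilization the mouse egg holds a store of maternal messages and makes almost no new transcripts. The egg completes meiosis, cortical granules release the protease ovastacin, which modifies the zona pellucida, and the parental genomes are packaged into pronuclei. During this period messages change mainly through degradation and through lengthening or shortening of their poly(A) tails. A poly(A)-primed library cannot separate more copies of a message from a longer tail, nor less RNA of every kind from an unchanged amount, because all values are shares of a library. "Higher" and "lower" below refer to that share.

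Gene counts per library were 1624598 to 4291347 at 2 h and 1049267 to 1793532 at 0 h. Depth differed with an exact 2-sided permutation p of 0.0159, or 0.0714 after Benjamini-Hochberg adjustment over 9 library values. With every library thinned to 1049267 counts, 15475 ± 913 genes had a count at 2 h and 15426 ± 432 at 0 h (SD, n = 5 each). The 12 oocyte and zygote markers were detected in both groups, with summed levels of 22913 to 28785 CPM (gene counts scaled to a library total of 1000000) at 2 h and 27190 to 29747 CPM at 0 h. The 5 markers of the 2-cell embryo summed to 1.85 to 6.37 CPM at 2 h and 0 to 3.81 CPM at 0 h, with Tdpoz3 at 0 in both groups. The 6 sperm markers summed to 2.16 to 3.69 CPM at 2 h and 0.656 to 5.02 CPM at 0 h, with Tnp1, Tnp2 and Smcp at 0 in both. RNA of other cells stood out in some libraries. The 12 cumulus markers summed to 61.003 to 849 CPM at 2 h, with the top value in 2 h replicate 2, and to 34.3 to 629 CPM at 0 h, with the top value in 0 h replicate 5. Fshr was at 0 in every 2 h library, and Foxl2 and Amh were at 0 in every 0 h library. The 6 blood and oviduct markers summed to 2.46 to 28.2 CPM at 2 h and to 33.5 to 1838 CPM at 0 h, with the top value in 0 h replicate 1. Of these, Hba-a1 and Hbb-bs had 1044 and 777 CPM in 0 h replicate 1 and 162 and 151 CPM in 0 h replicate 2. In the remaining libraries they had at most 7.20 and 3.60 CPM. Ptprc was at 0 in every 2 h library and Foxj1 in every 0 h library. The part of this RNA in the gene results was not tested. In the wider lists for those cells, 0 of 5 tested cumulus genes (1 at an unadjusted p under 0.05 by edgeR, 1 called by DESeq2) and 0 of 1 tested sperm genes were past the edgeR test described below, and of 3 tested blood and oviduct genes Cldn4 rose and Ovgp1 fell. Both calls ended when single libraries were left out (0 h replicate 3 or 2 h replicate 5 for Cldn4, and 0 h replicate 2, 3, 4 or 5 or 2 h replicate 3 or 4 for Ovgp1).

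Expression of 726 genes differed between 2 h and 0 h embryos, in similar numbers in each direction. By edgeR's quasi-likelihood F test with Benjamini-Hochberg adjustment at 0.05, 374 of 8804 genes tested were higher at 2 h (4.25%) and 352 were lower (4.0%), in total 8.25%. The changes were moderate. The median change was 0.84 on the log2 scale for genes that rose and -0.84 for genes that fell, 1.37% of the genes tested rose at least 2-fold, 1.36% fell at least 2-fold, and 10 genes changed at least 4-fold. The genes that rose together made up 93017 CPM at 2 h and 56822 CPM at 0 h, and those that fell made up 55888 CPM at 2 h and 95914 CPM at 0 h. All 5 libraries of 2 h lay above all 5 of 0 h for 264 of the genes that rose, and below them for 244 of the genes that fell. Irrespective of the test, the groups did not overlap for 4.15% of genes with 2 h higher and for 4.16% with 2 h lower. The median log2 change over all tested genes was 0.02.

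The number of genes past the test depended on single libraries. It was 416, 996, 527, 460 and 352 without 2 h replicates 1 to 5 in turn, and 459, 432, 361, 600 and 641 without 0 h replicates 1 to 5 in turn. Genes of the lists described below followed: 37 rose and 71 fell of 850 tested with all libraries, and those past the test in either direction numbered 67, 153, 84, 65 and 56 without 2 h replicates 1 to 5 and 69, 68, 65, 91 and 94 without 0 h replicates 1 to 5 in turn. Of the 726 genes, 272 stayed past the test in all 10 of these fits (145 of them lower), and 725 kept their direction in all 10, while Rab3ip was tested, with the same direction, in 7. Without 0 h replicates 1 and 5 together, 260 genes were past the test, and with all libraries thinned to 1 depth 464 were. A fit that also held the libraries of 4 h, 6 h and 8 h called 433 genes, and one of all 81 libraries of 0 h to 36 h called 1 (1237 at an unadjusted p under 0.05). Each gene named below as having risen or fallen was past the test in all 10 fits that leave out a library, unless the libraries whose omission ended the call are named. For the respiratory chain and zinc-finger genes, the members whose call held in all 10 are named instead. Lists are described by counts that stand beside 4.25% higher and 4.0% lower over all genes, with no test of a list as a whole.

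**Figure D1:**
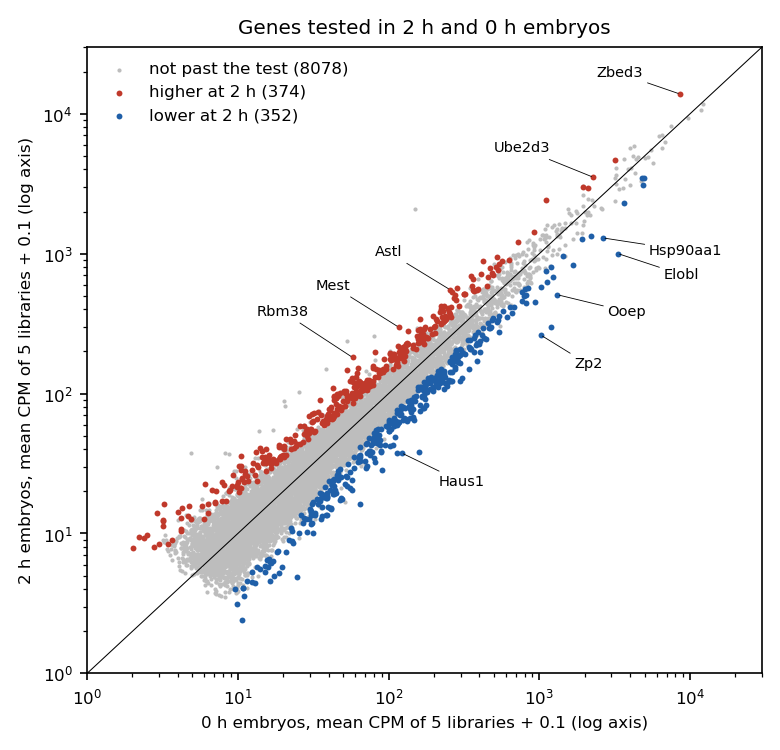
Mean level of each tested gene in the 5 embryos of 2 h (vertical axis) and of 0 h (horizontal axis), in CPM plus 0.1 on log axes, with the line of equality. Red points are the 374 genes higher at 2 h and blue points the 352 lower at 2 h. They lie along the whole range of levels, on either side of a narrow diagonal band.

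Among genes that rose, Raly and Rbm38, both for RNA-binding proteins, are described first. The 12 largest rises among genes with at least 30 CPM in the higher group, no overlap between groups and a name other than Gm or Rik numbers spanned 1.28 to 1.81 on the log2 scale. Raly, a member of the hnRNP family of RNA-binding proteins (chromosome 2, 154791096 to 154867261, plus strand, in GRCm38 as are all positions here), had 51.7, 30.6, 23.8, 43.1 and 30.2 CPM in the 2 h libraries and 9.41, 17.2, 9.18, 12.3 and 3.60 CPM in the 0 h libraries. Its log2 change was the largest of these, 1.81 ± 0.33 (SE, adjusted p = 0.00496). Rbm38, which encodes an RNA-binding protein that regulates message stability (chromosome 2, 173020498 to 173034734, plus strand), had 151, 112.9, 125.4, 287 and 229 CPM at 2 h and 51.5, 81.96, 53.1, 51.3 and 50.4 CPM at 0 h. Its lowest 2 h library stood above the highest 0 h library, and the log2 change was 1.70 ± 0.26 (SE, adjusted p = 0.00255). Mest, an imprinted gene expressed from the paternal allele in later development (chromosome 6, 30723547 to 30748465, plus strand), had 308, 218, 309, 241 and 414 CPM at 2 h and 93.5, 125.8, 112.8, 97.6 and 154 CPM at 0 h. The groups were apart, with a log2 fold change of 1.39 ± 0.19 (SE, adjusted p = 0.00185).

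Cdc45, an essential part of the replicative DNA helicase (chromosome 16, 18780447 to 18811987, minus strand), had 96.5, 88.9, 114.2, 113.4 and 132.96 CPM at 2 h and 40.8, 49.6, 50.5, 39.6 and 34.2 CPM at 0 h. The values of each group clustered closely and its log2 change was 1.38 ± 0.19 (SE, adjusted p = 0.00185). The others of the 12 were Rnf126, a ubiquitin ligase, Hsd3b7, an enzyme of bile acid synthesis, Bcl2l1, which encodes the survival factor Bcl-xL, Rabif, which binds Rab GTPases, Scarb1, the receptor for high-density lipoprotein, Sdcbp, the adaptor syntenin, Lypla1, a thioesterase that removes palmitate from proteins, and Zfp943, described with the zinc fingers. Bcl2l1 averaged 39.0 ± 10.7 CPM at 2 h and 14.3 ± 4.13 CPM at 0 h (SD, n = 5 each), and its log2 change was 1.46. Sdcbp averaged 199 ± 48.4 CPM at 2 h and 81.1 ± 26.5 CPM at 0 h, for a log2 fold change of 1.32.

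Elobl, an elongin B-like gene (chromosome 11, 88964658 to 88966931, minus strand), fell. It had 862, 1000, 1369, 833 and 946 CPM at 2 h and 2297, 3497, 3312, 3541 and 3911 CPM at 0 h. Its adjusted p was the lowest of all named genes, 8.45e-05, with a log2 fold change of -1.70 ± 0.17 (SE). Haus1, a subunit of the augmin complex that nucleates spindle microtubules, had 33.1, 50.8, 35.5, 39.2 and 28.9 CPM at 2 h and 96.6, 58.1, 186, 137.7 and 131.4 CPM at 0 h. The 0 h libraries varied more than the 2 h libraries but did not overlap with them, and the log2 change was -1.70 ± 0.26 (SE, adjusted p = 0.00255). Ninj2, of the ninjurin family of membrane proteins (chromosome 6, 120093350 to 120200339, plus strand), had the largest fall of the 12, with 28.0, 40.04, 57.1, 25.02 and 41.9 CPM at 2 h and 69.03, 103.9, 171, 238 and 219 CPM at 0 h, for a log2 fold change of -2.05 ± 0.35 (SE, adjusted p = 0.00587). Others were Nmu, the peptide neuromedin U, Arl2, a small GTPase of tubulin folding, R3hdml, Pinlyp, the pseudogene Speer5-ps1, the lincRNA AC132253.6, and Cdk1, described with the cell cycle genes. The remaining pair of the 12 were less secure. Zp2 lost its call without 0 h replicate 4 or without 2 h replicate 1, 4 or 5, where its adjusted p reached 0.0869, and Tmem29 lost it without 0 h replicate 3, 4 or 5 or 2 h replicate 1, 3, 4 or 5 (highest adjusted p = 0.0902), by the same edgeR test.

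**Figure D2:**
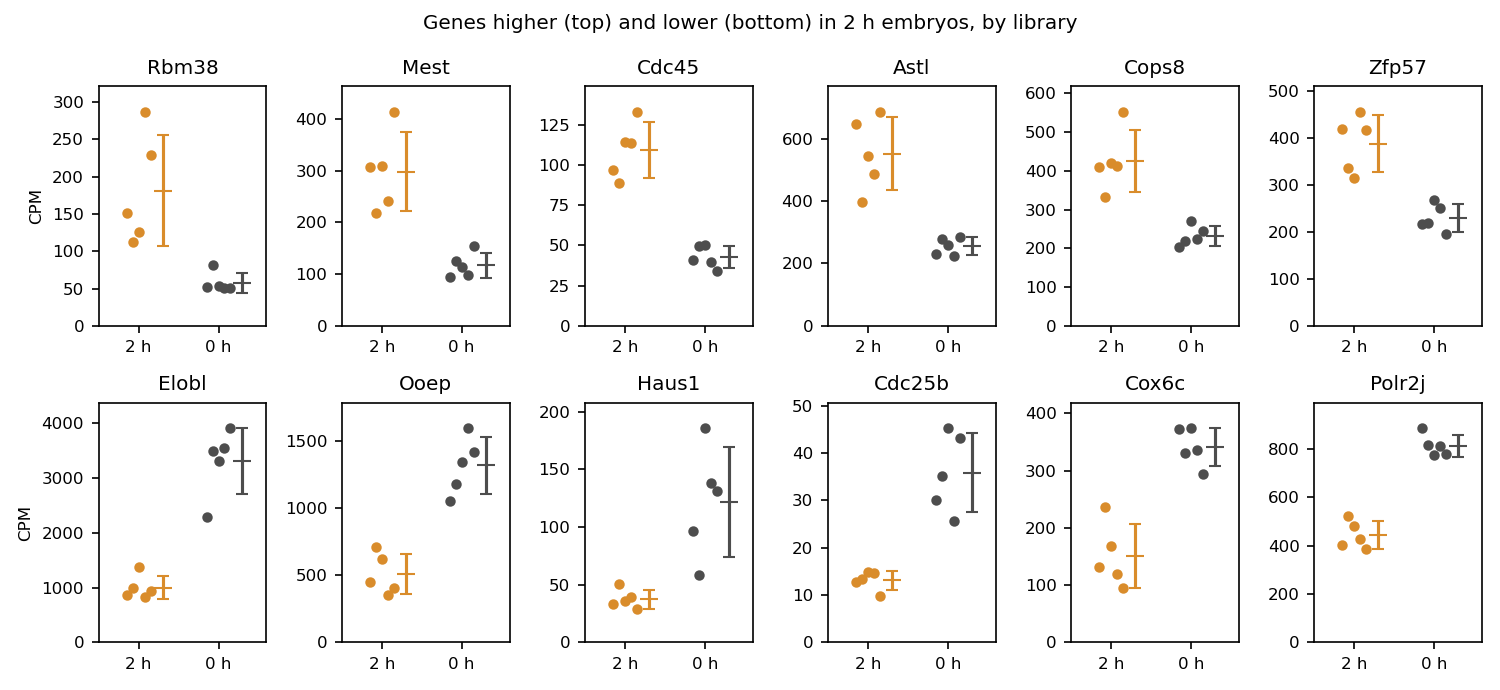
CPM of 12 genes in each library, with 2 h embryos on the left (orange) and 0 h embryos on the right (grey) of each panel; bars are the mean ± SD of 5 libraries. In every panel the 5 points of 2 h lie on one side of the 5 points of 0 h, as for Polr2j with 387 to 524 CPM at 2 h and 774 to 887 CPM at 0 h.

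Maternal messages can be lengthened or kept short through U-rich cytoplasmic polyadenylation elements in the 3′ UTR, which CPEB proteins bind near the polyadenylation signal. The letters TTTTAT or TTTTAAT were searched on the sense strand in the last 250 bases of each gene's longest annotated protein-coding transcript, where the 3′ UTR is at least that long. They were found in 41.2% of 289 genes that rose, in 31.8% of 201 genes that fell, and in 38.2% of 6018 genes not past the test. Of all 17060 protein-coding genes with such a window, 32.2% held them. A match says nothing of binding, and the annotated end may not be the end used in the egg. The motifs are printed in capitals within 30 bases written 5′ to 3′ from GENCODE M21 transcripts, for 3 genes that rose and 3 that fell. Each held a motif and had at least 30 CPM, no overlap and a call in all 10 fits. They are examples, and are not shown to be the largest changes among genes that meet these terms.
Rbm38, higher, chr2:173034668-173034697, plus strand: ttataataatatTTTTATtagaatgttctg
Hsd3b7, higher, chr7:127803644-127803673, plus strand: agacatttatcTTTTAATttgctttaaaga
Rabif, higher, chr1:134508738-134508767, plus strand: cctgggtatttTTTTAATcattaaaaacat
Tomm6, lower, chr17:47686705-47686734, minus strand: gtattttattcTTTTAATaagaaacttatt
Galnt6, lower, chr15:100691815-100691844, minus strand: ctggtggaaataaaggTTTTATggtattgg
Gmcl1, lower, chr6:86691795-86691824, minus strand: aattggaatcatTTTTATgtatctgttcaa
The motif ended 49, 141 and 19 bases before the end of the Rbm38, Hsd3b7 and Rabif transcripts, and 71, 8 and 39 bases before that of Tomm6, Galnt6 and Gmcl1. Hsd3b7 had 17.2 to 40.01 CPM at 2 h and 8.10 to 13.9 CPM at 0 h, and Rabif had 69.9 to 139.1 CPM at 2 h and 17.6 to 53.1 CPM at 0 h. Tomm6, a subunit of the mitochondrial outer-membrane translocase, had 11.2 to 30.6 CPM at 2 h and 34.3 to 64.7 CPM at 0 h. Galnt6, a glycosyltransferase, had 10.46 to 15.6 CPM at 2 h and 22.5 to 39.1 CPM at 0 h, and Gmcl1 had 69.6 to 104.6 CPM at 2 h and 141 to 174 CPM at 0 h. TGTANATA, which Pumilio proteins bind, was in 8.30% of genes that rose, 8.96% of those that fell and 10.7% of those not past the test, and TATTTAT, an AU-rich element, in 7.96%, 8.46% and 9.94% of the same groups of genes. None of these shares was tested.

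Among genes for secreted and zona proteins, the protease gene Astl rose and oocyte-secreted genes fell. Of 25 listed genes of the zona pellucida, cortical granules and oocyte secretion, 20 were tested, of which 1 rose and 5 fell (median log2 change 0.15, against 0.02 over all genes). Astl, which encodes the cortical granule protease ovastacin that cleaves zona protein ZP2 (chromosome 2, 127338639 to 127357651, plus strand), had 647, 396, 544, 487 and 686 CPM at 2 h and 229, 279, 260, 225 and 285 CPM at 0 h. The lowest 2 h library was above every 0 h library, and the log2 change was 1.14 ± 0.16 (SE, adjusted p = 0.00185).

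The 3 oocyte-secreted protein genes of the list, which lie together on chromosome 19, all fell. Oosp1 (11667460 to 11691150, minus strand) had 3014, 3363, 3285, 3174 and 2710 CPM at 2 h and 5647, 5050, 4749, 4652 and 4133 CPM at 0 h, for a log2 fold change of -0.61 ± 0.12 (SE, adjusted p = 0.00785). Oosp3 changed by -0.69 and Oosp2 by -0.55 on the log2 scale, both without overlap between the groups. Genes for the other zona proteins were not past the test: Zp1 averaged 234 ± 51.3 CPM at 2 h and 213 ± 61.7 CPM at 0 h, and Zp3 482 ± 29.7 CPM at 2 h and 567 ± 129.1 CPM at 0 h (SD, n = 5 each). For Zp2 the 2 h values were 260, 274, 363, 162 and 250 CPM and the 0 h values 586, 494, 591, 1360 and 2080 CPM, so the spread lay within the 0 h group. Calr fell by 0.62 on the log2 scale, and its call was lost in the fits without any library other than 0 h replicate 4 or 2 h replicate 2.

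Maternal-effect genes also changed in both directions. The subcortical maternal complex is a protein assembly of the egg cortex needed for early cleavage. Of 35 listed genes of this complex or with maternal effects, 29 were tested, of which 2 rose and 5 fell (median log2 change -0.02). Ooep, a core member (chromosome 9, 78376109 to 78378725, minus strand), had 452, 712, 618, 357 and 403 CPM at 2 h and 1056, 1180, 1345, 1596 and 1418 CPM at 0 h. All 2 h libraries were below all 0 h libraries, and the log2 change was -1.36 ± 0.19 (SE, adjusted p = 0.00185).

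Khdc3, another member on chromosome 9, averaged 123.4 ± 28.0 CPM at 2 h and 224 ± 44.9 CPM at 0 h (SD, n = 5 each, log2 change -0.84, adjusted p = 0.0121), with overlapping groups. Padi6, the arginine deiminase family member of the egg lattices, averaged 245 ± 45.7 CPM at 2 h and 440 ± 127.7 CPM at 0 h, for a log2 fold change of -0.81, and Npm2, the egg histone chaperone nucleoplasmin 2, 457 ± 74.8 CPM at 2 h and 770 ± 187 CPM at 0 h, one of -0.72. Zbed3, a further member of the complex (chromosome 13, 95323612 to 95337841, plus strand), was among the 5 most abundant genes and moved the other way, with 16726, 10870, 12674, 13926 and 14890 CPM at 2 h and 10690, 10923, 7890, 6043 and 7430 CPM at 0 h. Its groups met at 1 library each, and the log2 change was 0.72 ± 0.16 (SE, adjusted p = 0.0127). The core members Nlrp5 and Tle6 were not past the test, with 1309 ± 322 CPM at 2 h and 1372 ± 343 CPM at 0 h for Nlrp5 and 535 ± 65.7 CPM at 2 h and 596 ± 89.5 CPM at 0 h for Tle6.

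Regulators of meiotic exit were past the test in 5.13% of cases, against 8.25% of all genes. Of 39 tested genes for cyclins, their kinases and the anaphase-promoting complex, 0 rose by edgeR (6 at an unadjusted p under 0.05, 1 by DESeq2) and 2 fell. Cdk1, the kinase of M phase, had 12.4, 21.8, 16.7, 16.8 and 8.00 CPM at 2 h and 65.3, 35.3, 32.8, 32.3 and 42.3 CPM at 0 h, for a log2 fold change of -1.42 ± 0.28 (SE, adjusted p = 0.00696). Cdc25b, the phosphatase that activates it in the oocyte, had 12.8, 13.4, 14.9, 14.7 and 9.85 CPM at 2 h and 30.1, 35.3, 45.3, 25.6 and 43.2 CPM at 0 h, for a log2 fold change of -1.42 ± 0.25 (SE, adjusted p = 0.00394). Both genes showed groups that did not overlap. Mos, the kinase that holds the egg in metaphase, averaged 1149 ± 155 CPM at 2 h and 935 ± 120.7 CPM at 0 h (SD, n = 5 each, adjusted p = 0.153 by edgeR).

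Of 15 tested genes of egg activation and calcium signalling 1 fell, and 0 rose by edgeR or DESeq2 or at an unadjusted p under 0.05. Itpr2, a calcium-release channel, had 273, 345, 339, 257 and 249 CPM at 2 h and 533, 508, 467, 398 and 453 CPM at 0 h, for a log2 fold change of -0.66 ± 0.13 (SE, adjusted p = 0.00742). Of 53 tested spindle and kinetochore genes 3 rose and 5 fell. Besides Haus1, the augmin subunit Haus8 fell by 1.19 on the log2 scale, and Birc5, the survivin subunit of the chromosomal passenger complex, averaged 626 ± 79.7 CPM at 2 h and 1117 ± 265 CPM at 0 h (SD, n = 5 each), for a log2 fold change of -0.82. Tubg2, a gamma-tubulin, rose, with 201 to 321 CPM at 2 h and 111.7 to 188 CPM at 0 h.

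Of the 27 lists, the nuclear-encoded respiratory chain held the most genes that fell. Of 76 listed genes, 62 were tested, of which 17 fell and 1 rose, with a median log2 change of -0.46. Those that fell encode subunits of complex I (Ndufa1, Ndufa3, Ndufa5, Ndufa6, Ndufa7, Ndufa11, Ndufb6), of complex III (Uqcr11), of cytochrome oxidase (Ndufa4, Cox6a1, Cox6b1, Cox6c, Cox7a2, Cox8a) and of ATP synthase (Atp5e, Atp5h, Atp5k). Their log2 changes ranged from -1.43 to -0.45. Cox6c (chromosome 15, 35925886 to 35938246, minus strand) had 131.9, 237, 169, 120 and 94.2 CPM at 2 h and 372, 330, 374, 336 and 293 CPM at 0 h, and changed by -1.16 ± 0.19 (SE, adjusted p = 0.00287). The highest 2 h value was that of replicate 2, the 2 h library with the most cumulus marker RNA, as also for Cox6a1, Uqcr11 and Ndufa5. The call held in all 10 fits for Ndufa4, Ndufa5, Ndufa6, Uqcr11, Cox6a1 and Cox6c. The number of members that fell was 6, 32, 13, 6 and 7 without 2 h replicates 1 to 5 in turn, 11, 11, 10, 12 and 9 without 0 h replicates 1 to 5 in turn, and 4 without 0 h replicates 1 and 5 together. Sdha, the catalytic subunit of complex II, was the member that rose, with 102.8 ± 21.6 CPM at 2 h and 63.3 ± 11.6 CPM at 0 h (SD, n = 5 each), and it lost the call without 0 h replicate 1, 2 or 3 or 2 h replicate 4 or 5.

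All 12 tested genes of the mitochondrial genome had a negative log2 change, from -0.62 to -0.06, but 0 were past the test by edgeR or DESeq2 (1 at an unadjusted p under 0.05, lowest adjusted p = 0.162). They took 0.464, 0.946, 0.795, 0.481 and 0.385% of gene counts at 2 h and 0.577, 0.842, 0.657, 0.719 and 0.894% at 0 h (exact 2-sided permutation p = 0.341). Of 43 tested cytosolic ribosomal protein genes, out of 82 listed, 6 fell and 0 rose by edgeR or DESeq2 (16 and 0 at an unadjusted p under 0.05), with a median log2 change of -0.51. Rpl41 averaged 108.3 ± 30.8 CPM at 2 h and 234 ± 72.5 CPM at 0 h (SD, n = 5 each), for a log2 fold change of -1.08, and Rplp1 59.2 ± 9.76 CPM at 2 h and 108.8 ± 16.98 CPM at 0 h, one of -0.84. The count of ribosomal falls was 2, 13, 3, 3 and 3 without 2 h replicates 1 to 5 in turn, 3, 4, 3, 5 and 5 without 0 h replicates 1 to 5 in turn, and 2 without 0 h replicates 1 and 5 together. Reads of ribosomal protein genes can be shared with their many processed pseudogenes, so the level of a single member is uncertain.

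Genes past the test made up 10.7% of the RNA polymerase II list, 9.43% of the spliceosome list and 4.44% of the conjugation list. Over all genes the share was 8.25%. Polr2j, a small subunit of RNA polymerase II (chromosome 5, 136116631 to 136122947, plus strand), had 404, 524, 482, 430 and 387 CPM at 2 h and 887, 817, 774, 813 and 780 CPM at 0 h, for a log2 fold change of -0.85 ± 0.13 (SE, adjusted p = 0.00224). Of 56 tested genes of RNA polymerase II and general transcription 2 rose and 4 fell. Of 53 tested spliceosome genes 1 rose and 4 fell, among them Lsm5, Lsm4 and Snrpe of the core ring proteins, with log2 changes of -1.23, -1.13 and -0.58. Nedd8, the ubiquitin-like protein that activates cullins, had 104.6 to 171 CPM at 2 h and 207 to 264 CPM at 0 h, and it was 1 of 2 genes to change among 45 tested genes of ubiquitin and SUMO conjugation. The other was the conjugating enzyme Ube2d3, with 3513 ± 461 CPM at 2 h and 2284 ± 382 CPM at 0 h (SD, n = 5 each, log2 change 0.65), whose call ended without 0 h replicate 1 or 2 or without 2 h replicate 5.

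Genes that changed had shorter median coding regions and 3′ UTRs than the rest. They were also more abundant, with a median level at 0 h of 60.5 CPM for rises and 117.7 CPM for falls. Over all tested genes that median was 29.8 CPM. Whether the lengths differ apart from level was not tested. Over the protein-coding genes tested, the rank correlation of log2 change with length was -0.06 for coding regions and -0.02 for 3′ UTRs. The median coding length was 1086 bases for protein-coding genes that rose, 741 for those that fell and 1413 for those not past the test, and the median 3′ UTR was 1085, 578.5 and 1251 bases in the same order. In the third of protein-coding genes with the shortest coding regions, 5.65% rose and 6.41% fell, and in the third with the longest, 1.73% rose and 2.94% fell. By length of the 3′ UTR, rises were most frequent in the middle of 3 equal classes: 3.44% rose and 6.28% fell in the shortest class, 6.06% rose and 2.36% fell in the middle class, and 3.04% rose and 2.96% fell in the longest class.

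**Figure D3:**
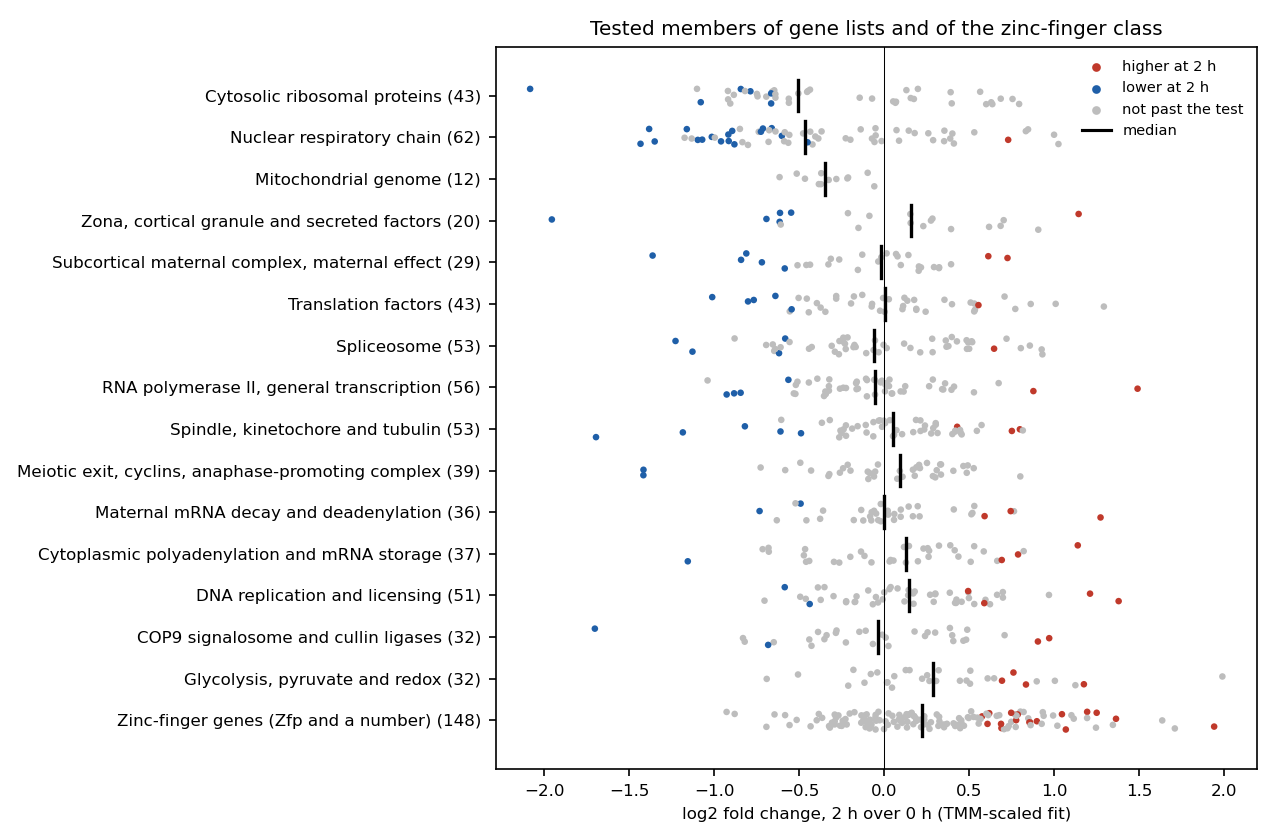
Log2 change, 2 h over 0 h, of each tested member of 15 gene lists and of the zinc-finger class, 1 point per gene with the number tested in brackets; red is higher and blue lower at 2 h, grey is not past the test, and the black bar is the median. Medians of the ribosomal (-0.51) and respiratory chain (-0.46) lists lie left of 0, and those of the glycolysis and redox (0.29) and zinc-finger (0.22) rows lie right of it.

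Translation factors included 5 genes that fell and 1 that rose of 43 tested. Eif5b, which joins the ribosomal subunits, had 401, 508, 432, 666 and 267 CPM at 2 h and 1186, 898, 1062, 808 and 714 CPM at 0 h, for a log2 fold change of -1.01 ± 0.20 (SE, adjusted p = 0.00689). Eif1b, Eif2s2 and Eif3k, all of initiation, changed by -0.64, -0.77 and -0.80 on the log2 scale. Hsp90aa1, an abundant chaperone, had 1435, 1614, 1301, 1245 and 881 CPM at 2 h and 3713, 3204, 2657, 1755 and 1896 CPM at 0 h. Its groups did not overlap, and the mean was 1295 ± 272 CPM at 2 h and 2645 ± 838 CPM at 0 h (SD, n = 5 each, adjusted p = 0.0054). It was 1 of 3 stress-response genes to change of 20 tested.

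In the machinery that removes maternal messages single subunits changed, and 13.9% of tested genes were past the test, against 8.25% of all genes. Of 36 tested genes of decay and deadenylation 3 rose and 2 fell (median log2 change 0.00). Cnot2, a scaffold of the CCR4-NOT deadenylase, had 170, 133.3, 136.95, 168 and 183 CPM at 2 h and 99.2, 90.5, 110, 84.7 and 98.1 CPM at 0 h, for a log2 fold change of 0.74 ± 0.16 (SE, adjusted p = 0.00907). Pan2, the nuclease of the other deadenylase, had 70.1 to 96.01 CPM at 2 h and 113.4 to 155 CPM at 0 h and changed by -0.73. Neither gene's groups overlapped. Btg4, the adaptor that brings CCR4-NOT to maternal messages, averaged 6909 ± 870 CPM at 2 h and 6253 ± 1185 CPM at 0 h (SD, n = 5 each, adjusted p = 0.565 by edgeR).

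Of 37 tested genes of cytoplasmic polyadenylation and message storage 3 rose and 1 fell. Pabpc4, a cytoplasmic poly(A)-binding protein, averaged 111.2 ± 19.5 CPM at 2 h and 66.01 ± 15.01 CPM at 0 h (SD, n = 5 each), for a log2 fold change of 0.79 without overlap. Cpeb1, which binds the element shown above, had 124.6 ± 22.4 CPM at 2 h and 153 ± 21.5 CPM at 0 h and did not pass the test (adjusted p = 0.338 by edgeR).

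Chromatin genes were past the test in shares of 12.1% for variants, chaperones and pronuclear chromatin and 7.69% for histone-modifying enzymes. Over all genes the share was 8.25%. Of 33 tested genes of histone variants, chaperones and pronuclear chromatin 1 rose and 3 fell. The gene that rose was Asf1b, a chaperone of H3 and H4, with 708 ± 132.1 CPM at 2 h and 491 ± 74.7 CPM at 0 h (SD, n = 5 each, log2 change 0.56, adjusted p = 0.0484). The groups overlapped, and of the 10 fits that left out 1 library its call held only in that without 2 h replicate 2. Nasp, a chaperone of linker histones and H3 (chromosome 4, 116601052 to 116627941, minus strand), had 256, 233, 220, 224 and 195 CPM at 2 h and 430, 449, 331, 387 and 403 CPM at 0 h, for a log2 fold change of -0.80 ± 0.12 (SE, adjusted p = 0.00255). Of 39 tested histone-modifying enzymes 0 rose by edgeR or DESeq2 (3 at an unadjusted p under 0.05) and 3 fell. Kdm1a, the demethylase LSD1, had 64.6 to 79.3 CPM at 2 h and 105.4 to 130 CPM at 0 h, and changed by -0.73.

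Zfp57, a zinc-finger protein that keeps DNA methylation at imprinted regions (chromosome 17, 37001163 to 37010635, plus strand), had 419, 335, 315, 456 and 417 CPM at 2 h and 217, 219, 269, 251 and 195 CPM at 0 h. The groups were apart, with a log2 fold change of 0.78 ± 0.15 (SE, adjusted p = 0.00742). Dnmt1, the maintenance methyltransferase, had 668, 765, 729, 687 and 555 CPM at 2 h and 1851, 1649, 905, 644 and 1124 CPM at 0 h. Its log2 change was -0.82, and the call was lost without 0 h replicate 1 or 2 or 2 h replicate 1, 4 or 5 (highest adjusted p = 0.0700 by edgeR). They were the genes past the test of 14 tested for DNA methylation. Of 51 tested replication genes 4 rose and 2 fell. Beside Cdc45, Pola2, a subunit of polymerase alpha, averaged 33.0 ± 10.2 CPM at 2 h and 14.8 ± 2.72 CPM at 0 h (SD, n = 5 each, log2 change 1.21), and it missed the threshold without 2 h replicate 5 (adjusted p = 0.0501).

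Cops8 and Cops2 rose, 2 subunits of the COP9 signalosome, which removes Nedd8 from cullins. Cops8 (chromosome 1, 90602981 to 90613341, plus strand) had 410, 332, 421, 413 and 553 CPM at 2 h and 203, 220, 271, 224 and 245 CPM at 0 h, for a log2 fold change of 0.90 ± 0.16 (SE, adjusted p = 0.0045). Cops2 had 127.2 to 207 CPM at 2 h and 60.99 to 90.996 CPM at 0 h, for a log2 fold change of 0.97. Neither overlapped between the groups. In the list of 32 tested genes of this complex and of cullin ligases, 2 rose and 2 fell, with a median log2 change of -0.04. Genes past the test were 12.5% of the list, against 8.25% of all genes. The elongins Elobl and Eloc fell, Eloc with 419 ± 99.6 CPM at 2 h and 681 ± 170 CPM at 0 h (SD, n = 5 each). The call of Eloc was lost without 0 h replicate 2, 3, 4 or 5 or 2 h replicate 1 or 4.

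Of 32 tested genes of glycolysis, pyruvate and redox metabolism 4 rose and 0 fell by edgeR or DESeq2 (8 and 1 at an unadjusted p under 0.05), with a median log2 change of 0.29. Gpx3, a glutathione peroxidase, had 113.3, 83.6, 96.04, 78.1 and 112.6 CPM at 2 h and 45.2, 49.6, 35.4, 52.97 and 34.2 CPM at 0 h, for a log2 fold change of 1.17 ± 0.19 (SE, adjusted p = 0.00287). It was the only 1 of the 4 whose call held in all 10 fits. Ldhb, a lactate dehydrogenase and the gene with the highest mean over the 10 libraries, had 11653 ± 907 CPM at 2 h and 12186 ± 1372 CPM at 0 h (adjusted p = 0.887 by edgeR). Nup88, of the nuclear pore, had 223 to 303 CPM at 2 h and 162 to 181 CPM at 0 h, for a log2 fold change of 0.65, and was 1 of 2 genes to rise among 40 tested of the nuclear envelope and pore, where 1 fell. Of 37 tested proteasome genes 1 rose and 1 fell. Nfyc, of the activator NF-Y, was higher and the 1 gene past the test among 18 tested regulators and targets of genome activation, of which 0 fell by edgeR or DESeq2 (1 at an unadjusted p under 0.05). Its call held only without 0 h replicate 3 or 4 or 2 h replicate 2. Over all 27 lists, 850 genes were tested, of which 37 rose and 71 fell.

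Zinc-finger genes named Zfp and a number changed in the upward direction where they were past the test. Many of them encode KRAB proteins that repress transposons. Of 148 tested, out of 416 in the table, 17 rose (11.5%, against 4.25% of all genes) and 0 fell by edgeR (4 at an unadjusted p under 0.05, 2 by DESeq2), the median log2 change was 0.22, and 100 were above 0. Over all genes, 4559 of 8804 were above 0. The genes that rose were Zfp57, Zfp944, Zfp943, Zfp846, Zfp518a, Zfp708, Zfp182, Zfp951, Zfp961, Zfp207, Zfp958, Zfp942, Zfp955a, Zfp980, Zfp322a, Zfp978 and Zfp655, of which 5 lie on chromosome 17. Summed over the whole class, the level was 10023, 9075, 9965, 9685 and 11661 CPM at 2 h and 8161, 8499, 7966, 8114 and 8986 CPM at 0 h. Every 2 h library stood above every 0 h library.

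Within the class the size of the rise varied. Zfp944 averaged 72.7 ± 18.9 CPM at 2 h and 32.1 ± 7.84 CPM at 0 h (SD, n = 5 each), for a log2 fold change of 1.19 (adjusted p = 0.00821). Zfp943 averaged 31.7 ± 6.72 CPM at 2 h and 12.5 ± 5.81 CPM at 0 h, for a log2 fold change of 1.36, and lost its call without 0 h replicate 3 (adjusted p = 0.0517). Zfp57 and Zfp944 were the ones whose call held in all 10 fits. The number of zinc-finger genes that rose was 9, 21, 5, 12 and 3 without 2 h replicates 1 to 5 in turn, 10, 8, 2, 11 and 12 without 0 h replicates 1 to 5 in turn, 2 without 0 h replicates 1 and 5 together, and 9 with all libraries thinned to 1 depth. Neighbouring zinc-finger genes are similar in sequence, and part of the deposited counts are fractional. Whether and how reads were shared between places is not given, so the assignment to single members is uncertain.

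Repeat families past the test were all lower at 2 h. Of 367 families tested on the scale of gene counts, 16 fell (4.36%) and 0 rose (0.0%) by edgeR (59 and 12 at an unadjusted p under 0.05, with 1 rise by DESeq2), with a median log2 change of -0.15 over all 367. Of the 16, 4 fell at least 2-fold (1.09% of those tested) and 9 had groups that did not overlap. Irrespective of the test, all 2 h libraries were below all 0 h libraries for 5.45% of families and above them for 0.545%. In total there were 3.65, 4.02, 4.41, 3.25 and 3.29 repeat counts per 100 gene counts at 2 h and 4.70, 5.04, 4.26, 3.78 and 3.98 at 0 h (exact 2-sided permutation p = 0.0952). IAPEz-int, the internal part of the intracisternal A particle retrovirus, had 58.5, 75.5, 54.6, 38.4 and 36.9 CPM at 2 h and 203, 283, 127.3, 163 and 136.8 CPM at 0 h. The highest 2 h library was below the lowest 0 h library, and the log2 change was -1.75 ± 0.23 (SE, adjusted p = 0.000854). The long terminal repeats IAPLTR2a2_Mm and RLTRETN_Mm changed by -1.27 and -1.26 on the log2 scale, also without overlap. The old LINE family L1MC1 had 52.3 to 81.1 CPM at 2 h and 101.7 to 148 CPM at 0 h, for a log2 fold change of -0.95.

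The SINE family B2_Mm2 averaged 941 ± 178 CPM at 2 h and 1638 ± 394 CPM at 0 h (SD, n = 5 each), for a log2 fold change of -0.77 (adjusted p = 0.00284 by edgeR). Its relative B2_Mm1a, with 2528 ± 433 CPM at 2 h and 4190 ± 1381 CPM at 0 h, was past the test (adjusted p = 0.0352) but not without 0 h replicate 1, 2 or 3 or 2 h replicate 1, 2, 4 or 5. The most abundant family, MTA_Mm-int, a retrotransposon active in oocytes, had 6982, 6461, 8112, 3786 and 4352 CPM at 2 h and 5541, 6392, 4439, 3285 and 4033 CPM at 0 h, with overlapping groups (adjusted p = 0.332 by edgeR). The count of 16 was 8, 7 and 8 without 0 h replicate 3, 2 h replicate 1 and 2 h replicate 4 in turn. With library sizes taken from the repeat rows themselves, 6 families fell and 2 rose. Repeat counts cannot tell transcription of an element from a copy inside a gene's message.

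**Figure D4:**
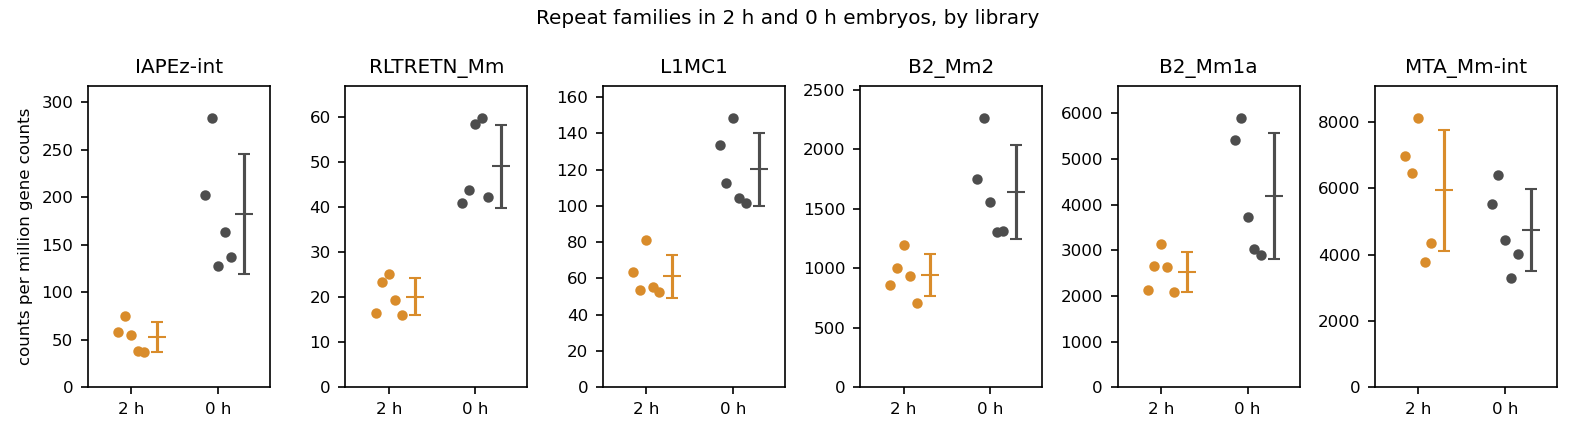
CPM of 6 repeat families, scaled to gene totals, in each library, 2 h on the left (orange) and 0 h on the right (grey), with the mean ± SD of 5 libraries. The 5 points of 2 h lie below the 5 of 0 h for IAPEz-int, RLTRETN_Mm, L1MC1 and B2_Mm2, whereas MTA_Mm-int overlaps.

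Levels in the other groups of the series place these genes in time. They are given as descriptions: no test was made across groups, oocytes and morulae (84 h) were processed in other batches, and the oocyte comparison shares the 0 h libraries. Elobl, Ooep and Khdc3, which fell at 2 h, had lower means again in the 2 libraries of 4 h. Mean CPM of Elobl was 88.5 in oocytes and, in the groups of 0 h, 2 h, 4 h and 8 h in that order, 3312, 1002, 207 and 111.2, and it reached 1365 ± 791 at 20 h (SD, n = 5). Ooep followed a like course, with a mean CPM of 389 in oocytes, then 1319, 508, 159 and 75.01 over the same hours, and 1799 ± 1310 in the 20 h group. Mean CPM of Khdc3 was 4.49 in oocytes, then 224 at 0 h, 123.4 at 2 h and 16.8 at 4 h, with no mean above 12.1 CPM from 6 h to 36 h, with 288 ± 193 CPM in morulae (SD, n = 7).

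Astl was highest at 2 h of all 16 groups, with a mean CPM ± SD of 59.1 ± 5.57 in oocytes (n = 8), then 256 ± 27.8 at 0 h and 552 ± 117.9 at 2 h (n = 5 each), 314 ± 159 at 4 h (n = 2) and 178 ± 97.5 at 6 h (n = 3). The 2 h and 4 h libraries overlapped, the lowest at 2 h being 396 CPM and the highest at 4 h 426 CPM. Mest and Cops8, which rose, had a lower mean at 0 h than in oocytes or at 4 h. Mean CPM of Mest was 276 in oocytes, then 116.7 at 0 h, 298 at 2 h and 300.3 at 4 h, and that of Cops8 was 538, then 232, 426 and 407. Mean CPM of IAPEz-int was 63.9 in oocytes, then 183 at 0 h, 52.8 at 2 h and 117.5 at 4 h, and it reached 633 ± 263 at 36 h (SD, n = 8).

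**Figure D5:**
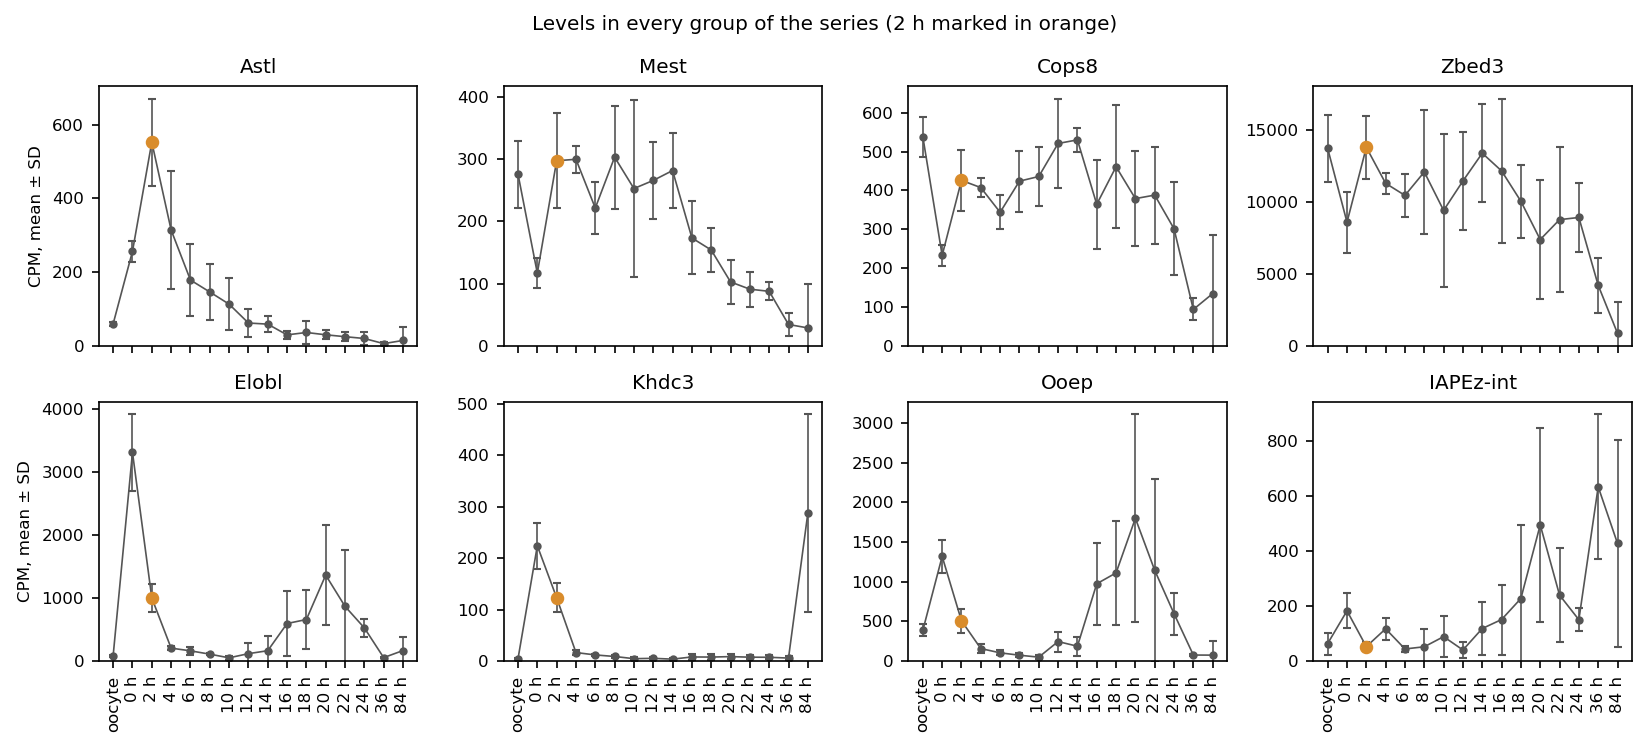
Mean ± SD in CPM of 7 genes and 1 repeat family in all 16 groups, from oocytes through 0 h to 36 h and morulae (84 h), with 2 h marked in orange; groups hold 2 to 10 libraries. Astl peaks at 2 h with 552 CPM, Elobl, Khdc3 and Ooep drop after 0 h, and Mest, Cops8 and Zbed3 have a lower mean at 0 h than in oocytes and at 2 h.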

How the data were processed

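SMART-Seq v4 and Nextera XT libraries of single embryos were sequenced. The tools named are Trimmomatic 0.39, STAR and featureCounts, with the build mm10, per the submitters' processing notes. The deposited table holds expected counts (fractional counts) of 55401 genes and 873 repeat families, of which 28.4% of nonzero gene values and 70.6% of nonzero repeat values are not whole numbers. Whether and how reads were shared between places, the strand setting and the annotation release are not given in the sources used here. Counts of overlapping genes and of similar copies are therefore uncertain. Symbols, positions and transcripts came from GENCODE M21 (GRCm38), which matched 55141 gene IDs by ID without version. Sequences were read from that annotation and assembly.

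The fractional counts were rounded, since whole counts had been planned for. CPM is a gene's rounded count divided by the library's gene total, times 1000000. For repeats the gene total was used too. Fold changes and p-values came from edgeR 4.0.16 in R 4.3.3 (filterByExpr, TMM, robust quasi-likelihood F test, 5 against 5 libraries, Benjamini-Hochberg threshold 0.05), tested on simulated data. Library values were compared with an exact permutation test over 252 splits, whose smallest p is 0.00794. Alternatives used DESeq2 1.42.0, other scalings, filters, library sets and a replicate block. Python 3.11.15 was used for summaries. Depth was 1049267 to 4291347 gene counts. Shares and counts carry counting error, and amplified reads are not independent molecules.

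Groups follow the labelled hour, and replicates are numbered by accession order where the labels give no number. Eligible for naming were the 12 largest rises and falls past the test. Those were taken among genes with at least 30 CPM in the higher group, no overlap and no Gm or Rik name. To these were added up to 4 called members per list with the lowest p and the 5 most abundant genes. Also added were 6 repeat families by p, 3 by level and the top marker-list gene. Not all of these are described above. Other genes are named from list counts, as comparators or as holders of a printed motif, and were chosen after their values were seen. The zinc-finger class, the gene lists and the groups compared were chosen with earlier results of these data known.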

Additional observations from a re-analysis of the deposited data

Results flagged for a closer look

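In 14 of 242 sets of 5 values examined (5.79%), 1 library lay farther from the other 4 of its group than Dixon's 95% limit allows, which chance gives in about 1 set in 20. Several concern RNA of other cells. Summed over the cumulus and granulosa list, 2 h replicate 2 had 12467 CPM, against 2446 CPM in the next 2 h library, and Spp1 alone made up 9235 CPM of it (next 1077 CPM). On the same list 0 h replicate 5 had 2598 CPM (next 1242 CPM), and it also had the most genes with a count after thinning in its group, 16170 (next 15343). The blood and oviduct list summed to 2461 CPM in 0 h replicate 1 (next 463 CPM, in 0 h replicate 2).

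Among genes at 2 h, Rpl32 had 96.7 CPM in replicate 2 (next 64.2 CPM), Srsf3 286 CPM in replicate 5 (next 214 CPM), Cldn4 48.6 CPM in replicate 5 (next 24.9 CPM) and H1foo 11823 CPM in replicate 4 (next 9089 CPM). The repeat family IAPLTR2a2_Mm was lowest in 2 h replicate 5, with 6.77 CPM (next 13.8 CPM). Among genes at 0 h, Eif3k had 213 CPM in replicate 1 (next 166 CPM), Nup88 181 CPM in replicate 2 (next 166 CPM), Rbm38 81.96 CPM in replicate 2 (next 53.1 CPM) and Stip1 39.6 CPM in replicate 5 (next 22.9 CPM).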

How the results depend on the processing

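The total number of genes past the test was 726 in the main fit and 352 to 996 with 1 library left out. It was 1 in the fit of all 81 libraries of 0 h to 36 h and 464 after thinning to 1 depth. With the 20 libraries up to 8 h fitted together it was 433, of which 416 were among the 726. Without 0 h replicates 1 and 5 together it was 260. The last 3 settings were chosen after seeing the data. The spread between libraries entering these fits differed, with a common biological coefficient of variation of 0.291 in the pair fit, 0.379 with 20 libraries and 0.626 with 81; whether this accounts for the counts was not tested. The same settings gave 56 to 153, 0, 82, 65 and 38 of 850 list genes. DESeq2 called 1051 genes, and library size alone, DESeq2 size factors, no filter, a stricter filter and unrounded counts gave 711, 727, 666, 827 and 728. Repeat families numbered 7 to 22 with 1 library left out, 25 with DESeq2 and 8 with library sizes of the repeat rows. With the replicate number as a block, 793 genes and 22 repeat families were past the test. Libraries of equal number did not deviate together (r = -0.0951 to 0.0388), none correlated best with its own number, and the labels do not pair them. None of the 9 library values was past the adjusted threshold in any setting. With 5 against 5 libraries the smallest p of the exact permutation test is 0.00794. Reached by 1 value alone it becomes 0.0714 after adjustment, so 1 value could not pass by itself. Of 97 genes past the test that were eligible for naming, not all of them described, 0 changed direction under these settings. In all 10 fits that leave out a library, 62 of them stayed past the test. The balance within a list was less steady. Of spindle and kinetochore genes, 3 rose and 5 fell with all libraries, and 6 rose and 3 fell without 2 h replicate 2. Of zona and secreted genes, 1 rose and 5 fell in the main fit, and 4 rose and 4 fell with the replicate block. Depth limits low genes: 8804 of 55401 passed the filter on low counts, among them 1 of 31 sperm genes and 18 of 48 genome activation genes.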

Other observations

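Some abundant maternal genes outside the lists were also past the test; they were chosen after their values were seen. E330017A01Rik (chromosome 16, 58635167 to 58638739, minus strand, GRCm38) had 229, 486, 360, 217 and 210 CPM at 2 h and 789, 885, 989, 1744 and 1539 CPM at 0 h. Its groups did not overlap, and its log2 change of -1.98 ± 0.29 (SE, adjusted p = 0.00379 by edgeR) held in all 10 fits that leave out a library. Sub1, a transcriptional coactivator that binds single-stranded DNA, averaged 2311 ± 369 CPM at 2 h and 3659 ± 643 CPM at 0 h (SD, n = 5 each), a log2 change of -0.65, and lost its call without 0 h replicate 3 or 2 h replicate 1 or 4. Slbp, which binds the stem-loop of histone messages, averaged 4663 ± 864 CPM at 2 h and 3165 ± 567 CPM at 0 h, a log2 change of 0.59, and stayed past the test only without 0 h replicate 4 or 5 or 2 h replicate 2.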
